A study of Mus musculus with 6 samples.

Results

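Imprinted genes are transcribed mainly from the chromosome inherited from 1 parent. A list of 47 imprinted mouse genes at 18 loci, 40 protein-coding and 7 noncoding, was followed in ribosome-bound and input RNA of cerebral cortex. All 47 symbols were found among the 32531 gene rows of the count files. There are 3 immunopurification libraries (IP), made from tagged polysomes that antibodies against EGFP pulled out of homogenised cortex, and they are set against 3 libraries labelled input from the same tissue. Both groups come from untreated adult mice of 1 line, Htr4-EGFP/Rpl10a (ES1299). In this line Htr4, a serotonin receptor gene, drives Rpl10a, a ribosomal protein, fused to EGFP, so every library, input included, carries the transgene. The labels do not say how many mice were used, so p-values measure only the spread between these libraries, which may be technical.

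At an imprinted locus, methylation laid down in the egg or in the sperm marks the parental chromosomes differently, and neighbouring genes are read from opposite parental copies under a shared control region. Noncoding RNAs such as Airn and Kcnq1ot1 silence neighbouring genes in cis, and the zinc finger protein ZFP57 protects methylation at control regions by binding the methylated hexamer TGCCGC. In brain, imprinted genes are known for roles in growth, feeding, maternal care and neuronal differentiation, and Ube3a is imprinted in neurons by an antisense transcript. Read counts per gene do not distinguish the parental alleles, so the values below are total RNA of a gene, and the allele given for each gene is background knowledge.

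IP libraries held 53147173 to 67559533 reads on genes and input libraries 37696125 to 52360452. Htr4, whose activity drives the tag, rose in IP (log2 fold change 1.34, adjusted p = 5.7e-05, edgeR). Rpl10a, the ribosomal protein gene that the tag is fused to, had 0.807, 0.817 and 0.996 CPM in IP and 1.44, 2.62 and 1.80 CPM in input. Every IP library lay below every input library, but Rpl10a did not pass (log2 fold change -1.16, adjusted p = 0.066). Its row held only 45 to 68 reads per IP library and 53 to 132 per input library. Reads aligned to several places were counted for no gene, so the row may not hold all reads of Rpl10a. Of 7 markers of excitatory cortical neurons, 3 rose and 4 did not pass, and of 8 markers of inhibitory neurons 4 rose and 4 did not pass. All 8 astrocyte, 8 oligodendrocyte, 5 oligodendrocyte precursor and 8 microglial markers fell. The summed astrocyte markers lay between 812 and 995 CPM in IP, against 3883 and 4480 CPM in input. CPM is the read count of a gene scaled to a common library total. In such libraries, which cells carry the tag, how much RNA each holds and how much of it is on ribosomes cannot be told apart. Reads that matched several genes, and were therefore counted for none, made up 1.82% ± 0.0772 of listed reads in IP and 8.99% ± 0.856 in input (SD, n = 3 each).

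The first sequences below are microRNAs of the stretch from Meg3 to Mirg, shown because its hairpin rows had few reads in IP. Meg3, Rian and Mirg lie in a row on the plus strand of chromosome 12 (GRCm38), between 109541001 and 109749460, and this stretch holds 57 annotated microRNA hairpins, of which 54 have a row of their own in the count files. Over those rows the IP libraries had 1, 0 and 3 reads in replicates 1 to 3, and the input libraries 126, 211 and 185. Summed, that is 4 reads in IP and 522 in input. The input level was thus 186-fold the IP level (exact 95% counting interval 72.3 to 686, reads pooled over libraries). Hairpin rows outside this stretch were not examined, so whether the difference is particular to it is not known. Reads of this kind of library at a hairpin come from longer RNA and do not measure the mature microRNA. The rows with the most input reads were Mir1188, with 3 IP and 214 input reads, and Mir341, with 0 IP and 79 input reads. Both hairpins lie inside Rian, and the mature products of each span 109611841 to 109611901 and 109611521 to 109611576. Their mature products and 1 of Mir377, a row inside Mirg with 0 IP and 40 input reads, at 109740553 to 109740574 (RefSeq, build GRCm38.p6), are printed 5′ to 3′ with the seed, bases 2 to 8, in capitals.
mmu-miR-1188-5p: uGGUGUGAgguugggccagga
mmu-miR-1188-3p: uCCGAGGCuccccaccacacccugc
mmu-miR-341-5p: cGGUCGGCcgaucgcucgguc
mmu-miR-341-3p: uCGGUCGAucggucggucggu
mmu-miR-377-3p: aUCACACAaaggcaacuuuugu

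Another group of microRNAs in the same stretch lies inside Rtl1, on the opposite strand (between 109590459 and 109595387), and is made from the maternal chromosome. They are shown because the Rtl1 gene, whose fall in IP is given below, spans them from the other strand. A read there cannot be assigned to a strand in these counts, since the strand setting is not given in the sources used here. The 4 hairpin rows inside Rtl1 had 0 reads in all 6 libraries. These 4 hairpins lie within annotated exons of Rtl1. If the counting ignored strand and used these exons, reads there would also fit Rtl1 and be counted for neither gene. The 0 values therefore do not show whether reads fell on these hairpins. All 21 mature sequences looked up in the stretch had different seeds, so none of those printed forms a seed family with another.
mmu-miR-127-3p: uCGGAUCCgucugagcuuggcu
mmu-miR-136-5p: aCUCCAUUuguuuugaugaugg
mmu-miR-431-5p: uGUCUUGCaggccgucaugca
mmu-miR-433-3p: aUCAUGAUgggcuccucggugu
mmu-miR-434-3p: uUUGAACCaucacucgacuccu

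Promoter sequences from RefSeq (GRCm38.p6; 250 bases before to 50 after a start) were found for 38 of the 47 members and were searched for TGCCGC on both strands, the letters that ZFP57 reads when methylated. Of these 38 genes, 15 (39.5%) had a promoter with the hexamer, against 3527 of all 27025 genes (13.1%). Counted per promoter, 16 of 62 member promoters (25.8%) held it, against 11.6% of all 32851 promoters of the same length. The median number of CG dinucleotides was 15 in member promoters and 7 in all promoters, so the base composition also differs. A match describes letters and is no evidence of binding. The 4 promoters below, with the hexamer in capitals on either strand, are examples chosen from those that hold it. They belong to 3 members that rose in IP (Nap1l5, Nnat and Snurf) and to 1 that fell (Meg3). The Snurf promoter is also annotated as a Snrpn promoter.
Nap1l5, chr6:58907077-58907376, minus strand: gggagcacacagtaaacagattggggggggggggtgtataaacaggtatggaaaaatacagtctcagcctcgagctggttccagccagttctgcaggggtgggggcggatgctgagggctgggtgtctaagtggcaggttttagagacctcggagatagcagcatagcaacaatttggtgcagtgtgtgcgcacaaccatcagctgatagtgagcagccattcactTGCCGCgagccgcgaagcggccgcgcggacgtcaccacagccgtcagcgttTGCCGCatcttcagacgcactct
Nnat, chr2:157559828-157560127, plus strand: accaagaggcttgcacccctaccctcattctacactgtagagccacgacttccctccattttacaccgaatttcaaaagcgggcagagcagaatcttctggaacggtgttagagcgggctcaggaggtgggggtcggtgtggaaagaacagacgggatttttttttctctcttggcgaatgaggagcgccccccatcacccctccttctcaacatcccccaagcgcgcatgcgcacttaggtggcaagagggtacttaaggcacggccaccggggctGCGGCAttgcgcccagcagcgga
Snurf, chr7:60005150-60005449, minus strand: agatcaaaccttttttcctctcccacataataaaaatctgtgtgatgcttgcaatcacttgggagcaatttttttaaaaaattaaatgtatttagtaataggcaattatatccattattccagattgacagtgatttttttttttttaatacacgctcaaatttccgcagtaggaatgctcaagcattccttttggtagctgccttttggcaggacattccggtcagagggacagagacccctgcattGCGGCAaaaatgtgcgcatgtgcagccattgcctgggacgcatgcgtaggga
Meg3, chr12:109540746-109541045, plus strand: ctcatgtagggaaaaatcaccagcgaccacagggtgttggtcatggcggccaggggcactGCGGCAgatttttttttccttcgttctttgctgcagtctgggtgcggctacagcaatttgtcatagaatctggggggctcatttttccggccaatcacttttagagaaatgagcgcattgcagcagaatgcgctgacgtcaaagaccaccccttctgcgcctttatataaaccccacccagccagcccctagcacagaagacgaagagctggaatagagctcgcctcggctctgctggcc

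Among tested protein-coding members more rose than fell in IP, while 4 of the 6 tested noncoding members fell. Of the 43 members with enough reads to be tested, 14 rose in IP, 10 fell and 19 did not pass (edgeR quasi-likelihood test, adjusted p under 0.05 over all 16506 genes tested). Over all those genes, 21.3% were called higher in IP, 23.4% lower and 44.8% either way. Among tested members 55.8% were called, and the median log2 fold change was 0.11, beside -0.015 for all tested genes. The members that rose did so by log2 fold changes of 0.41 (Usp29) to 1.86 (Ndn), whereas the falls reached -5.06 (Meg3). IP and input libraries did not overlap for 25 tested members, 14 with IP above and 11 with IP below. Among all tested genes 26.5% had IP above and 29.5% had IP below without overlap.

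**Figure D1:**
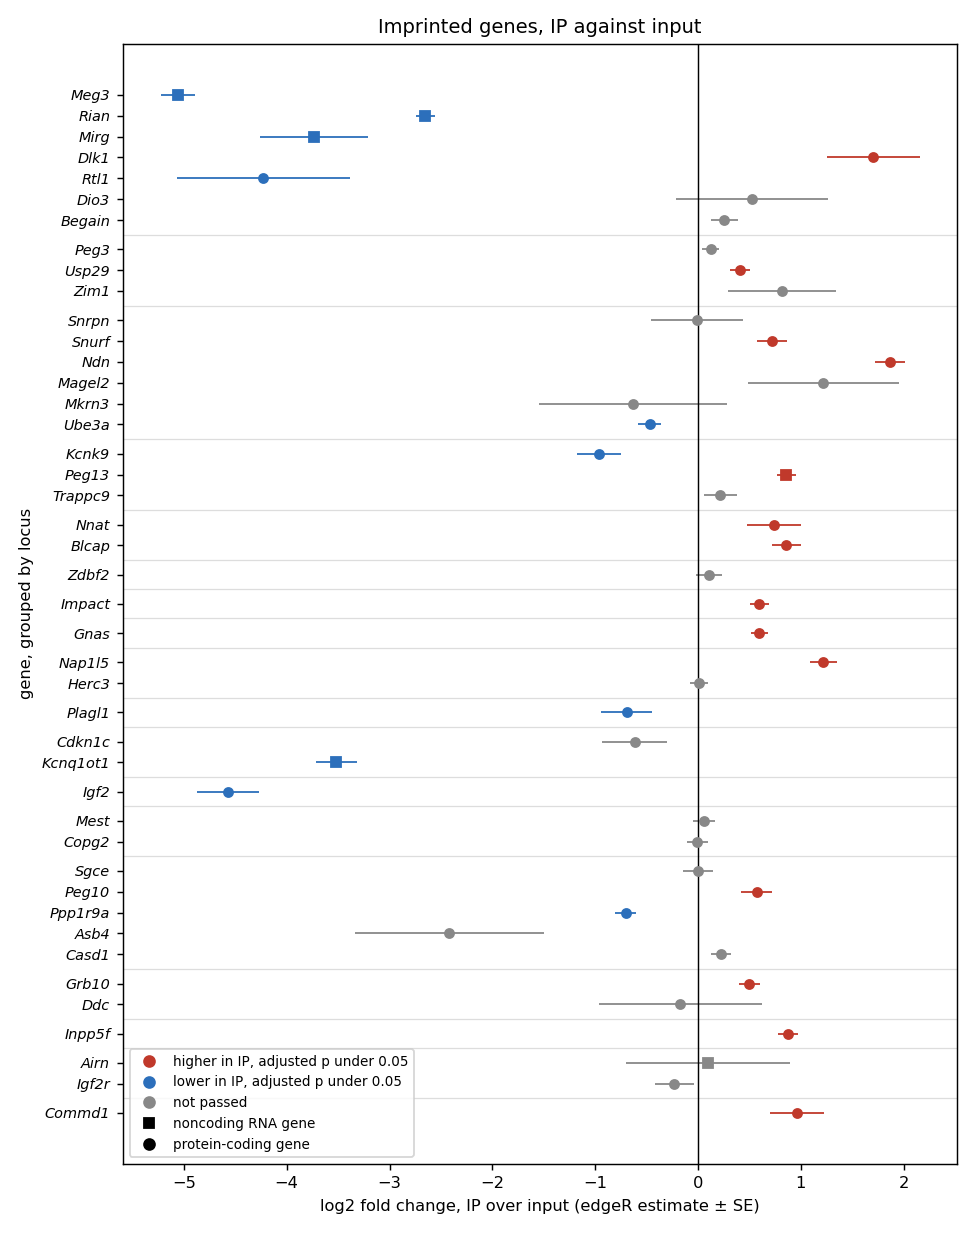
Log2 fold change of each of the 43 tested imprinted genes, IP over input, with its standard error, grouped by locus from Dlk1-Dio3 at the top to Commd1 at the bottom. Red points rose, blue points fell and grey points did not pass. Squares are noncoding RNA genes, of which 4 lie left of -2.5 and Peg13 lies at 0.86.

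By RNA class, 37 coding members were tested, of which 13 rose and 6 fell, with a median log2 fold change of 0.22. Of the 6 tested noncoding members, Meg3, Rian, Mirg and Kcnq1ot1 fell, Peg13 rose and Airn did not pass, with a median of -3.09. By expressed allele, 22 members known as paternally expressed were tested, 9 rose and 4 fell, with a median of 0.27. Of 14 tested maternally expressed members 2 rose and 6 fell, with a median of -0.54. Among coding genes alone, 8 of 19 paternally expressed members rose and 3 fell (median 0.41), and 2 of 11 maternally expressed members rose and 3 fell (median -0.0063). The other 7 members depend on isoform or tissue, and 3 of them rose. Grb10, paternally expressed in neurons, was placed among these 7, while Blcap, whose imprinting differs between isoforms, was placed among the maternally expressed members. Both rose, and placing them otherwise would change the counts and medians. Differences between these classes were not tested.

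All 47 members together took 0.650% ± 0.0474 of gene reads in IP and 0.855% ± 0.0362 in input (SD, n = 3 each). Meg3 alone accounted for 0.0125% ± 0.00284 in IP and 0.391% ± 0.0326 in input. Without Meg3 the members took 0.637% ± 0.0462 of gene reads in IP and 0.464% ± 0.00358 in input. Levels of different genes are compared here only per kilobase of GENCODE M21 exon (RPKM, the CPM value divided by that length), leaving out Snurf, whose annotated exons there are 216 bases long. In IP, Nap1l5 had the highest level of all members at 405 ± 76.6 RPKM, ahead of Gnas at 141 ± 4.86, Peg13 at 134 ± 13.5 and Impact at 97.9 ± 10.1 RPKM. Gnas and Peg13 did not differ beyond their spread. In input, Meg3 was highest at 223 ± 20.5 RPKM, followed by Nap1l5 at 174 ± 17.4, Gnas at 93.1 ± 6.80, Peg13 at 73.8 ± 2.43 and Impact at 64.8 ± 3.09 RPKM. In IP the level of Meg3 was 6.71 ± 1.62 RPKM. The length used joins the exons of all annotated isoforms of a gene, 11186 bases for Gnas and 1844 for Nap1l5. The annotation behind the counts is not given, so the order of the genes depends on this choice of length.

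In the Dlk1-Dio3 locus on chromosome 12, the maternally expressed noncoding genes Meg3, Rian and Mirg, and the gene Rtl1 between them, all fell in IP, while Dlk1, on the other side of Meg3, rose. Meg3, a long noncoding RNA abundant in neuronal nuclei, had 106, 103 and 155 CPM in IP replicates 1 to 3, against 3630.2, 4141 and 4353 CPM in input replicates 1 to 3. Every IP library lay far below every input library (log2 fold change -5.06, SE 0.17, adjusted p = 2.7e-09). Rian, which hosts small nucleolar RNAs and microRNAs in its introns, had 36.8, 41.9 and 41.9 CPM in IP and 260.1, 255 and 243 CPM in input (log2 fold change -2.65, SE 0.10, adjusted p = 4.8e-09). Mirg, the host of a distal group of microRNAs, had 0.269, 0.129 and 0.249 CPM in IP and 2.40, 3.06 and 3.17 CPM in input (log2 fold change -3.73, SE 0.53, adjusted p = 0.00017). The groups did not overlap for any of these 3 genes, and log2 fold changes within sequencing lanes 1, 2 and 3 were -5.10, -5.33 and -4.81 for Meg3 and -2.82, -2.61 and -2.53 for Rian. The fall was not of 1 size: Meg3 reads per Rian read numbered 2.87, 2.46 and 3.70 in IP, against 13.95, 16.2 and 17.9 in input, with no overlap.

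Rtl1, a gene derived from a retrotransposon that codes for a protein needed in the placenta, had 56, 1 and 9 reads in IP and 223, 398 and 338 in input, or 1.005, 0.0143 and 0.132 CPM in IP and 6.08, 7.91 and 6.92 CPM in input. All IP libraries were below all input libraries, but they differed widely among themselves (log2 fold change -4.23, SE 0.84, adjusted p = 0.0016), and without IP replicate 1 the log2 fold change was -6.53. It was -3.64 without IP replicate 2, -5.72 with limma-voom and -4.98 with the replicate number as a block. Rtl1 spans 109589193 to 109600330 on the minus strand, opposite the second group of microRNAs printed above. Dlk1, a membrane protein related to Notch ligands that restrains differentiation, had 24.7, 8.03 and 13.5 CPM in IP and 8.36, 3.10 and 2.83 CPM in input (log2 fold change 1.70, SE 0.45, adjusted p = 0.0089). IP replicate 2 lay just below input replicate 1, replicate 1 was the highest library of both groups, and the log2 fold changes within lanes were 1.56, 1.37 and 2.25. Without input replicate 2 Dlk1 missed the threshold (adjusted p = 0.052), and without input replicate 1 its log2 fold change was 2.39. Dio3, the deiodinase that inactivates thyroid hormone, had 1.56, 0.631 and 0.674 CPM in IP and 0.954, 0.855 and 0.184 CPM in input (log2 fold change 0.52, adjusted p = 0.59). Begain, a postsynaptic protein gene at the edge of the locus, had 32.2, 31.2 and 39.7 CPM in IP and 30.2, 28.6 and 27.5 CPM in input. Its groups did not overlap, but the test did not pass (log2 fold change 0.26, adjusted p = 0.13).

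**Figure D2:**
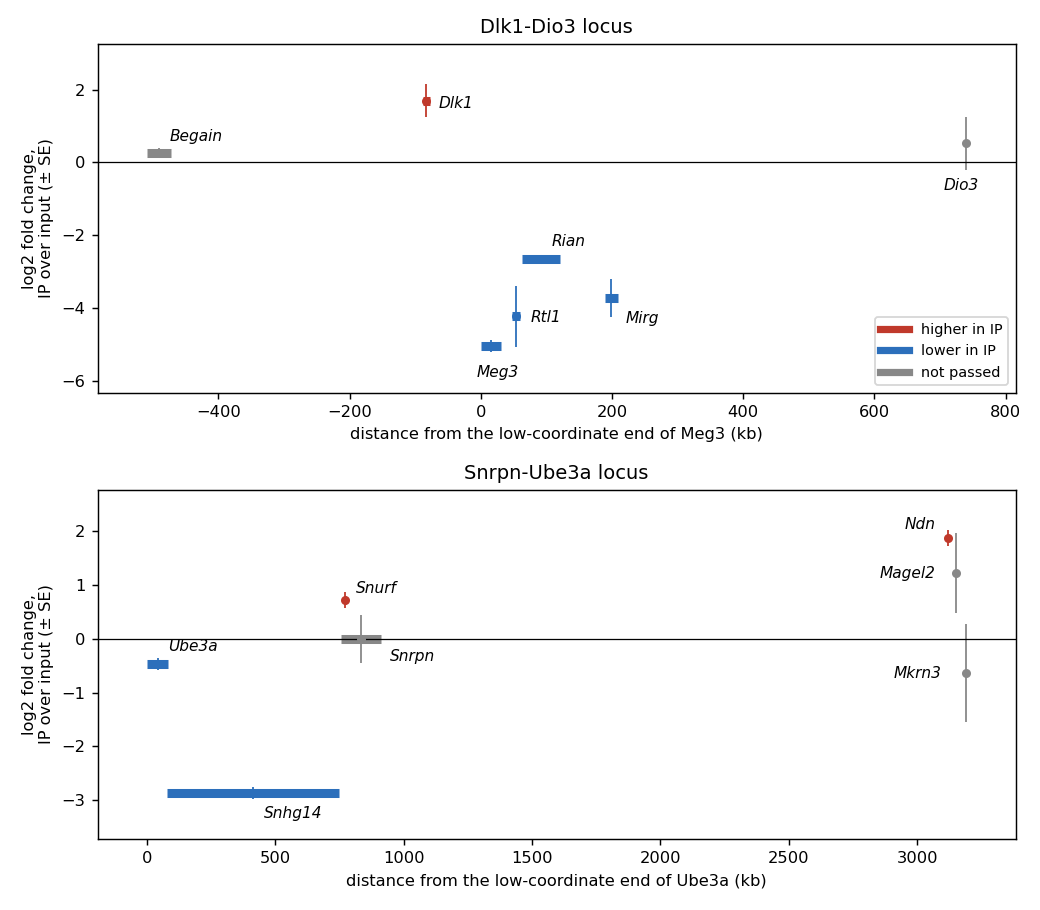
Log2 fold change, IP over input, of genes of the Dlk1-Dio3 locus (top) and the Snrpn-Ube3a locus (bottom) at their place along the chromosome, as distance in kb. Horizontal bars span the gene and vertical lines are the standard error. The 4 blue genes of the upper panel adjoin each other, and Snhg14 in the lower panel lies between Ube3a and Snrpn.

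In the Snrpn-Ube3a locus on chromosome 7, whose loss on the paternal or maternal copy causes Prader-Willi or Angelman syndrome in humans, the paternally expressed Ndn and Snurf rose and the maternally expressed Ube3a fell. Ndn (62346569 to 62350262, plus strand), which codes for necdin, a MAGE family protein of postmitotic neurons, had 149, 136 and 132 CPM in IP and 48.3, 32.2 and 34.3 CPM in input. All IP libraries lay far above all input libraries (log2 fold change 1.86, SE 0.15, adjusted p = 2.3e-06). Its neighbour and relative Magel2 had 133, 43 and 100 reads in IP and 48, 14 and 17 in input. That is 2.39, 0.617 and 1.47 CPM in IP and 1.31, 0.278 and 0.348 CPM in input, with overlapping groups (log2 fold change 1.22, adjusted p = 0.2). Mkrn3, a RING finger gene that restrains the onset of puberty, had 2, 29 and 39 reads in IP and 22, 38 and 12 in input and did not pass (adjusted p = 0.6). Peg12 had 0 reads in every IP library and 2 reads over the input libraries, at or under the floor of 3 reads, so no fold is given.

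Snurf and Snrpn are 2 reading frames of 1 transcript, Snrpn coding for the splicing protein SmN, and all 216 exonic bases annotated for Snurf are shared with Snrpn. How the reads were divided between the 2 symbols therefore depends on the counting. Snurf had 26.5, 22.3 and 25.4 CPM in IP and 15.1, 16.5 and 13.4 CPM in input and rose (log2 fold change 0.72, SE 0.15, adjusted p = 0.002). The Snrpn row had 1.31, 1.46 and 2.21 CPM in IP and 1.42, 1.45 and 2.15 CPM in input (log2 fold change -0.0099, adjusted p = 0.99). Snrpn reads per Snurf read numbered 0.0498, 0.0660 and 0.0875 in IP and 0.0949, 0.0887 and 0.161 in input, without overlap between the groups. Ube3a, a ubiquitin ligase, had 41.3, 35.3 and 40.4 CPM in IP and 55.8, 50.8 and 55.6 CPM in input, a small fall with no overlap (log2 fold change -0.47, SE 0.11, adjusted p = 0.0047). Part of its exons, 8.74% of their bases, lie opposite exons of Snhg14, the long paternal RNA that runs antisense to it. Snhg14 is no member of the list. It had 28.6, 28.9 and 32.5 CPM in IP and 238, 203 and 214 CPM in input (log2 fold change -2.86, adjusted p = 5.0e-09). If the counting ignored strand, reads in the bases shared by Snhg14 and Ube3a would fit 2 genes and be counted for neither. The Ube3a value thus depends on the strand setting and annotation, which are not given.

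Noncoding genes of other loci were divided. Peg13, an unspliced noncoding RNA inside an intron of Trappc9 on chromosome 15 (72805600 to 72810324, minus strand), had 616, 577 and 702 CPM in IP and 335, 354 and 356 CPM in input, the reverse direction to Meg3 (log2 fold change 0.86, SE 0.09, adjusted p = 2.0e-05). Its host Trappc9, a subunit of a vesicle trafficking complex with a maternal bias in brain, had 17.1, 21.8 and 19.4 CPM in IP and 14.3, 18.2 and 17.8 CPM in input (log2 fold change 0.22, adjusted p = 0.3). Kcnk9, the maternally expressed leak potassium channel gene of the locus, had 4.52, 4.90 and 6.56 CPM in IP and 10.6, 11.2 and 9.42 CPM in input and fell (log2 fold change -0.96, SE 0.21, adjusted p = 0.0031). Peg13 reads per Trappc9 read numbered 35.98, 26.5 and 36.1 in IP and 23.5, 19.5 and 20.1 in input. Kcnk9 reads per Trappc9 read numbered 0.265, 0.225 and 0.338 in IP and 0.743, 0.617 and 0.531 in input. So, within 1 locus, the groups separated in opposite directions for Peg13 and Kcnk9 relative to Trappc9.

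Kcnq1ot1, the paternally expressed antisense RNA of the Kcnq1 domain on chromosome 7, had 4.001, 3.84 and 2.74 CPM in IP and 45.1, 43.7 and 32.6 CPM in input (log2 fold change -3.52, SE 0.20, adjusted p = 1.8e-07). Within lanes 1 to 3 the log2 fold changes lay close together, at -3.49, -3.50 and -3.57. Cdkn1c, a cell cycle inhibitor that Kcnq1ot1 silences in cis, had 1.97, 2.50 and 3.14 CPM in IP and 3.32, 4.21 and 4.12 CPM in input. All IP libraries were below all input libraries, but the test did not pass (log2 fold change -0.62, adjusted p = 0.14). Phlda2, a growth restrainer of the placenta, had 2 reads over the IP libraries and 3 over the input libraries, at the floor. Kcnq1 itself, not a member, had 2, 0 and 2 reads in IP and 46, 2 and 1 in input. Airn, the antisense RNA of Igf2r on chromosome 17, had 18, 16 and 9 reads in IP and 7, 9 and 13 in input and did not pass (adjusted p = 0.93). Igf2r, the receptor that clears Igf2, had 14.5, 24.3 and 20.01 CPM in IP and 19.7, 24.8 and 24.6 CPM in input (log2 fold change -0.23, adjusted p = 0.35).

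Igf2, a fetal growth factor that in adult brain is made mainly by meninges, vessels and choroid plexus, fell in IP. The gene lies on chromosome 7 (142650766 to 142666816, minus strand) and had 2.83, 2.94 and 1.26 CPM in IP and 41.3, 63.6 and 61.7 CPM in input (log2 fold change -4.57, SE 0.30, adjusted p = 5.9e-07). H19, the maternally expressed noncoding RNA next to it, had 0 reads in every IP library and 0, 7 and 4 in input. With the IP group set at a floor of 3 reads, the summed H19 level was 5.23-fold lower in IP. That value leaves out the counting error of the input reads, so it is no lower bound. The groups overlapped, since input replicate 1 also had 0 reads. H19 was too low for the main test, and without a filter it did not pass in edgeR (log2 fold change -5.08, adjusted p = 0.077). Markers of vessels and fibroblasts moved with Igf2 in part. Of 7 endothelial markers 6 were tested and all 6 fell, with a sum of 0.278 to 0.754 CPM in IP, against 4.82 to 10.8 CPM in input, and Tek had 0 reads in every IP library. Of 7 mural and fibroblast markers 6 were tested and 3 fell, with a sum of 5.79 to 28.8 CPM in IP, against 20.005 to 24.8 CPM in input, and none was at 0 in all IP libraries. Of 5 choroid plexus markers 3 were tested, 2 rose and 1 fell. Clic6 (log2 fold change 3.30) and Kl (1.27, with overlapping groups) rose, and Kcnj13 fell (-4.47). Ttr and Folr1 were not tested. Ttr had 0, 4 and 0 reads in IP and 12, 31 and 4 in input, and Folr1 had 0 reads in every IP library. The sum of the 5 was 10.2 to 19.7 CPM in IP, against 7.55 to 7.85 CPM in input, so the markers did not move together. The part of these cells in the Igf2 result was not tested.

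**Figure D3:**
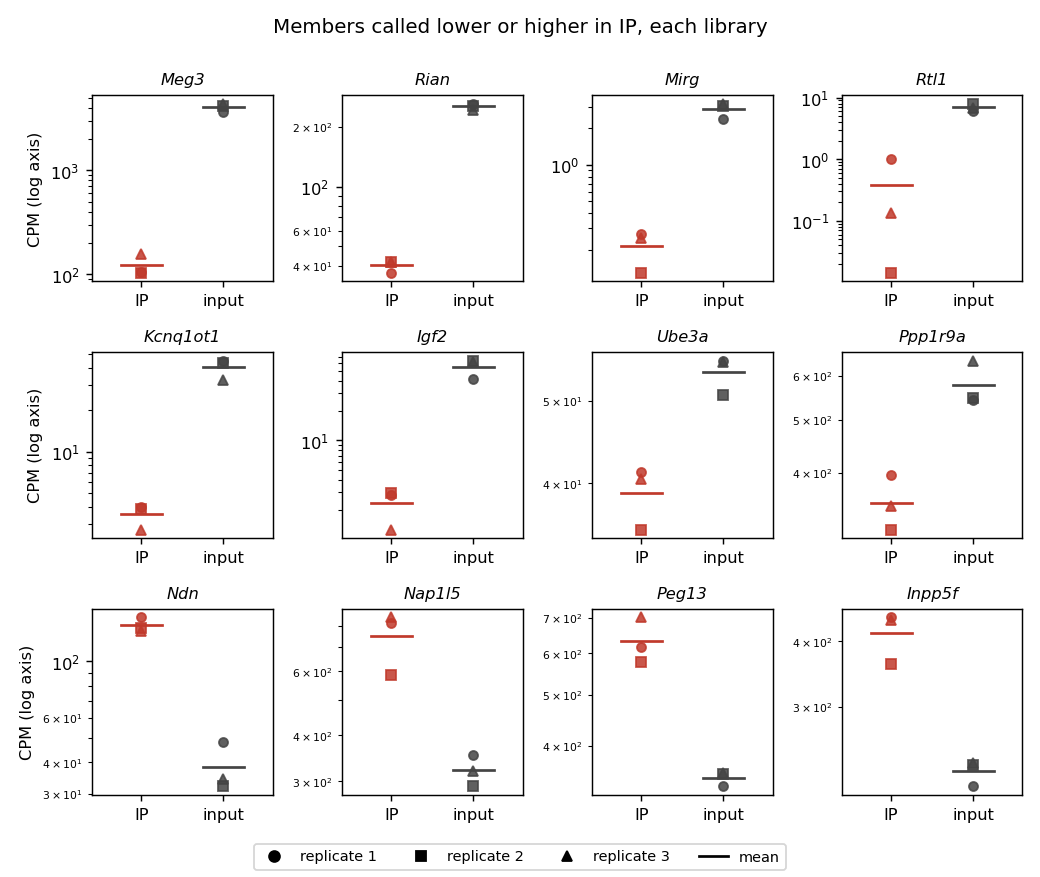
CPM of 12 called members in each library, on log axes that differ between panels, with IP left of input. Symbols mark replicates 1 to 3 and horizontal lines the group means. In all 12 panels the 3 IP libraries lie on one side of the 3 input libraries, below them in the first 8 and above them in the last 4.

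Besides Peg13, the members Nap1l5 and Nnat, which also lie inside an intron of another gene, rose in IP. Nap1l5, a histone chaperone relative with a single exon inside an intron of Herc3 on chromosome 6 (58905233 to 58907076, minus strand), had 814, 585 and 842 CPM in IP and 354, 290.2 and 319 CPM in input (log2 fold change 1.22, SE 0.13, adjusted p = 2.6e-05). Herc3, a ubiquitin ligase gene on the opposite strand, had 288, 342 and 313 CPM in IP and 299, 303 and 333 CPM in input (log2 fold change 0.011, adjusted p = 0.93). Nap1l5 reads per Herc3 read numbered 2.83, 1.71 and 2.69 in IP and 1.19, 0.957 and 0.957 in input, without overlap. Nnat, neuronatin, a small membrane protein of the endoplasmic reticulum within an intron of Blcap on chromosome 2, had 120.1, 78.3 and 48.2 CPM in IP and 59.1, 50.4 and 37.96 CPM in input (log2 fold change 0.74, SE 0.26, adjusted p = 0.038). The Nnat groups overlapped, and the call was lost without IP replicate 1 (log2 fold change 0.37, adjusted p = 0.17), in DESeq2 (0.14) and in limma-voom (0.058). Leaving out input replicate 2 gave an adjusted p of 0.1, and leaving out input replicate 3 gave 0.15. Blcap, a small conserved membrane protein gene, rose as well, without overlap, and had 76.2, 56.7 and 83.8 CPM in IP and 39.01, 38.2 and 42.2 CPM in input (log2 fold change 0.86, SE 0.14, adjusted p = 0.00046). The ratio of Nnat to Blcap reads overlapped between the groups. Other imprinted genes inside a host gene, both no members, differed in their calls. Mcts2, a single-exon gene inside H13 on chromosome 2, had 11.2, 11.6 and 9.63 CPM in IP and 11.5, 9.96 and 8.52 CPM in input, with overlapping groups, and did not pass (log2 fold change 0.12, adjusted p = 0.64). Zrsr1, a splicing factor relative inside Commd1 on chromosome 11, rose and had 98.1, 93.2 and 92.2 CPM in IP and 66.3, 60.3 and 58.1 CPM in input (log2 fold change 0.62, adjusted p = 0.00032). Commd1, a copper homeostasis gene, had 10.6, 12.8 and 12.7 CPM in IP and 8.20, 6.56 and 3.81 CPM in input (log2 fold change 0.96, SE 0.26, adjusted p = 0.0099). Exons of Commd1 and Zrsr1 share 412 bases on opposite strands, 6.94% of those of Commd1. If the counting ignored strand, reads in these bases would fit 2 genes and be counted for neither. The values of both genes thus depend on the strand setting and annotation, which are not given. Within lanes 1 to 3 the log2 fold changes of Commd1 spread more, at 0.37, 0.96 and 1.74.

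Among signalling and regulatory members, Gnas, Impact, Inpp5f and Grb10 rose and Plagl1 fell. Gnas, which codes for the stimulatory G protein alpha subunit, had 1559, 1529.7 and 1635 CPM in IP and 999, 996 and 1129.5 CPM in input (log2 fold change 0.60, SE 0.08, adjusted p = 0.00013). Impact, on chromosome 18, an inhibitor of the kinase Gcn2 in translational control, had 537, 443 and 527 CPM in IP and 337, 315 and 345 CPM in input (log2 fold change 0.60, SE 0.09, adjusted p = 0.00035). Inpp5f, an inositol phosphatase gene with an imprinted brain isoform on chromosome 7, had 445, 362 and 440.2 CPM in IP and 212, 232 and 234 CPM in input (log2 fold change 0.88, SE 0.10, adjusted p = 3.1e-05). These 3 genes had IP above input in every library. Nespas, an antisense RNA that overlaps 8.83% of the exonic bases of Gnas, had 0 reads in every IP library and 3, 2 and 0 in input. Gene counts do not separate the imprinted isoforms of Gnas, Inpp5f, Grb10 and Blcap from the others. Grb10, an adaptor of insulin receptor signalling that is paternally expressed in neurons, had 120.1, 103 and 120.3 CPM in IP and 86.8, 80.3 and 75.8 CPM in input (log2 fold change 0.50, SE 0.10, adjusted p = 0.0018). Plagl1, a zinc finger transcription factor gene on chromosome 10, had 36.6, 17.8 and 17.2 CPM in IP and 43.3, 37.00 and 35.2 CPM in input. It fell (log2 fold change -0.69, SE 0.25, adjusted p = 0.04), but IP replicate 1 lay within the input range. Without IP replicate 1 the log2 fold change of Plagl1 was -1.13 (adjusted p = 0.00014). The Plagl1 call was lost without any other 1 library (adjusted p = 0.075 to 0.15) and with total counts (adjusted p = 0.077).

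At the Peg3 locus on chromosome 7, Usp29 rose, and Peg3 and Zim1 did not pass. Peg3, a large zinc finger gene linked to maternal behaviour, had 438, 412 and 456 CPM in IP and 381, 393 and 425 CPM in input, with overlapping groups (log2 fold change 0.12, adjusted p = 0.25). Usp29, a ubiquitin peptidase gene that shares a promoter region with Peg3 and runs the other way, had 96.4, 87.2 and 91.6 CPM in IP and 72.98, 65.7 and 68.6 CPM in input and rose (log2 fold change 0.41, SE 0.09, adjusted p = 0.0042). Within lanes 1 to 3 the log2 fold changes of Usp29 were 0.40, 0.41 and 0.42, and Peg3 reads per Usp29 read numbered 4.55, 4.73 and 4.98 in IP, against 5.22, 5.97 and 6.19 in input. Usp29 shares 14.3% of its exonic bases with Zim3 on the opposite strand, which had 0 to 2 reads per library. Zim1, a maternally expressed zinc finger gene, had 6.62, 2.14 and 1.48 CPM in IP and 2.40, 1.67 and 1.74 CPM in input, with overlapping groups (log2 fold change 0.82, adjusted p = 0.23).

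At the Peg10-Sgce locus on chromosome 6, Peg10 rose and Ppp1r9a fell. Peg10, a retrotransposon-derived gene with a gag-like protein, had 87.8, 57.8 and 60.5 CPM in IP and 45.9, 48.2 and 44.6 CPM in input (log2 fold change 0.57, SE 0.15, adjusted p = 0.0086). Sgce, epsilon-sarcoglycan, mutated in myoclonus dystonia in humans, starts next to Peg10 on the other strand and had 20.6, 19.2 and 17.6 CPM in IP and 17.3, 19.4 and 20.8 CPM in input (log2 fold change -0.0034, adjusted p = 0.99). Peg10 reads per Sgce read numbered 4.27, 3.01 and 3.44 in IP and 2.65, 2.48 and 2.14 in input. Ppp1r9a, neurabin, an actin-binding protein of dendritic spines, had 397, 316 and 348 CPM in IP and 543, 547 and 639 CPM in input and fell (log2 fold change -0.70, SE 0.10, adjusted p = 0.00022). Casd1, an enzyme gene that acetylates sialic acids, had 94.3, 94.96 and 102 CPM in IP and 74.8, 88.7 and 86.1 CPM in input and just missed the threshold (log2 fold change 0.22, adjusted p = 0.088). Asb4, a ubiquitin ligase adaptor gene, had 14, 4 and 2 reads in IP and 14, 37 and 33 in input. It lay at the threshold (log2 fold change -2.42, adjusted p = 0.0504) and passed without IP replicate 1 (log2 fold change -3.71, adjusted p = 0.013), with limma-voom (0.022) and with RLE scaling (0.049).

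The members Mest, Copg2 and Zdbf2 gave overlapping groups. Mest, a hydrolase gene on chromosome 6, had 54.8, 57.5 and 58.4 CPM in IP and 53.1, 49.7 and 60.9 CPM in input (log2 fold change 0.061, adjusted p = 0.68). Copg2, a coat protein gene that meets Mest tail to tail, had 53.7, 54.7 and 61.4 CPM in IP and 58.7, 56.5 and 55.4 CPM in input (log2 fold change -0.0063, adjusted p = 0.97). Their exons share 912 bases on opposite strands, 23.1% of those of Mest and 17.8% of those of Copg2. Zdbf2, a zinc finger gene on chromosome 1 that affects growth and feeding, had 170.2, 118 and 137 CPM in IP and 131, 129.6 and 134 CPM in input (log2 fold change 0.11, adjusted p = 0.51).

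Some members spread widely among the IP libraries. Calcr, the calcitonin receptor gene, had 156, 0 and 35 reads in IP replicates 1 to 3 and 2, 0 and 1 in input. The filter on low counts kept it out of the test, and the group ratio of 44.6 has an exact 95% counting interval of 15.05 to 218. Where it was tested, Calcr passed without a filter (adjusted p = 0.0040) and without IP replicate 2 (0.0013), which is the IP library at 0. It did not pass without input replicate 1 (0.054), 2 (0.091) or 3 (0.089), and without IP replicate 1 or 3 it was again not tested. Ddc, the decarboxylase that makes dopamine and serotonin, had 2.46, 0.201 and 0.498 CPM in IP and 0.899, 1.55 and 1.09 CPM in input (log2 fold change -0.17, adjusted p = 0.88). IP replicate 1 was the highest IP library for Calcr, Ddc, Dlk1, Zim1, Magel2, Nnat, Plagl1 and Peg10. It was also the highest for other members, such as Rtl1, Ndn and Impact, but not for Meg3 or Gnas. For Mkrn3, with 2, 29 and 39 reads in IP replicates 1 to 3, it was the lowest. How often each IP library was the highest over all genes was not counted. The fibroblast marker Dcn, which is also a reported imprinted gene, had 26.0, 10.2 and 3.15 CPM in IP replicates 1 to 3 and 11.9, 8.51 and 7.04 CPM in input. Whether IP replicate 1 stands apart from the other IP libraries was not tested.

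**Figure D4:**
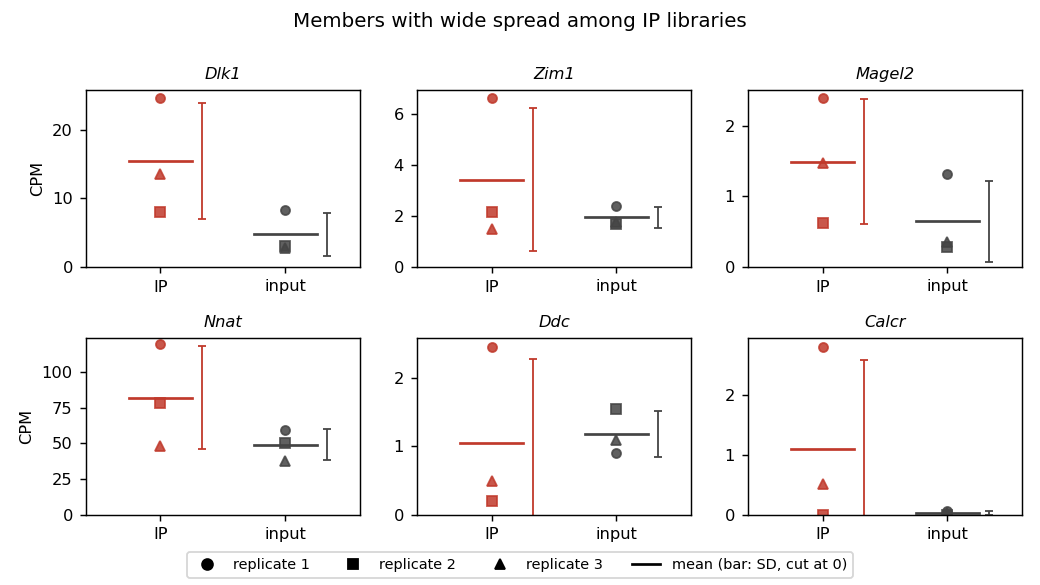
CPM of 6 members whose IP libraries spread widely, with IP left of input. Symbols mark replicates, horizontal lines the mean and vertical bars 1 SD, cut at 0. IP replicate 1, the circle, is the highest IP library in all 6 panels.

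In each of 15 pairs of genes of the same locus, the reads of both genes were divided within each library, which removes the library total. For 9 pairs the IP and input libraries did not overlap. Each of these had a two-sided exact permutation p of 0.1, the smallest that 3 against 3 libraries allow (0.17 adjusted over the 15 pairs). Among all tested genes taken singly, 56.1% did not overlap either. No share was computed for pairs of other genes, so the count is not read as a trait of imprinted loci. Kcnq1ot1 reads per Cdkn1c read numbered 2.02, 1.54 and 0.874 in IP and 13.5, 10.3 and 7.91 in input, a difference of -2.89 on the log2 scale. Meg3 over Rian shifted by -2.43 and Meg3 over Mirg by -1.33. Nap1l5 over Herc3 shifted by 1.19, Peg13 over Trappc9 by 0.64 and Peg10 over Sgce by 0.55. The groups overlapped for Nnat over Blcap, Mest over Copg2, Snrpn over Ube3a, Ndn over Magel2, Airn over Igf2r and Grb10 over Ddc.

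**Figure D5:**
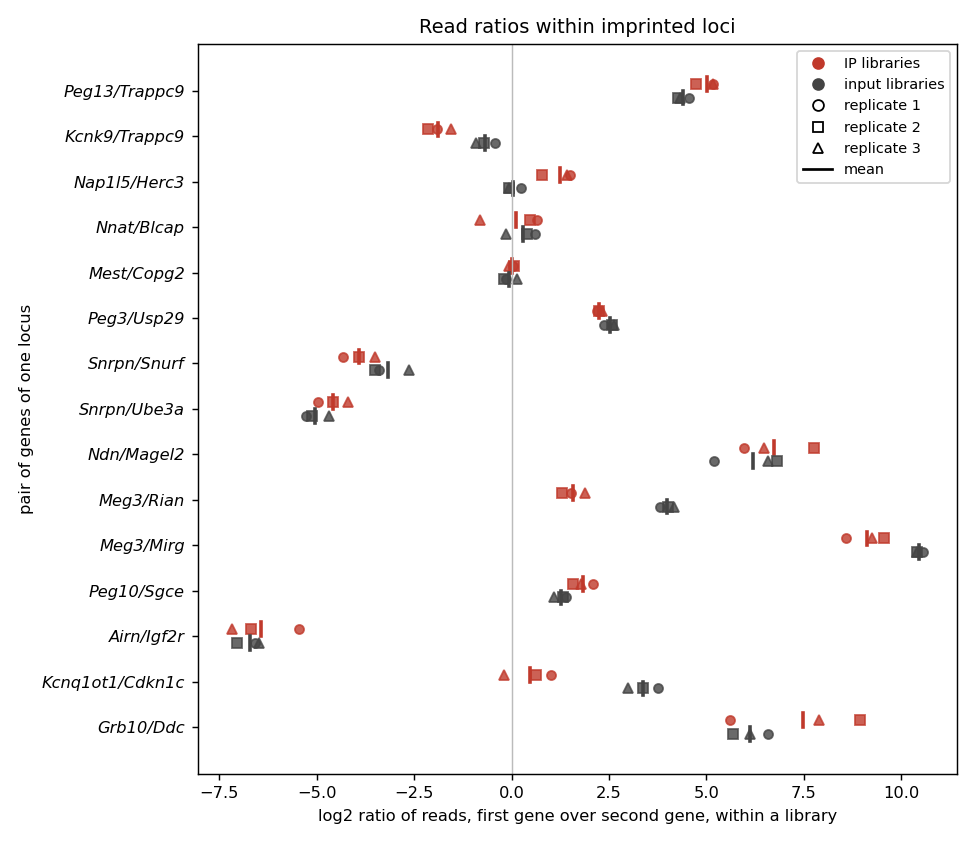
Log2 ratio of the reads of 2 genes of a locus within each library, for 15 pairs, with IP above input in each row. Symbols mark replicates and vertical ticks the group means. The IP ratios lie apart from the input ratios in 9 rows, among them Kcnq1ot1 over Cdkn1c and Meg3 over Rian.

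Other genes reported as imprinted in mouse were followed through a separate list of 44, of which 42 are in the files and 33 were tested. In IP 6 rose, 8 fell and 19 did not pass, so 42.4% were called, beside 44.8% of all tested genes. Those that rose were Th, Tssc4, Zrsr1, Rasgrf1, Slc22a3 and Bcl2l1. Rasgrf1, a Ras exchange factor paternally expressed in brain, had 607, 656 and 624 CPM in IP and 316, 316 and 323 CPM in input (log2 fold change 0.98, adjusted p = 2.3e-06). Th, tyrosine hydroxylase, had 1.69, 3.07 and 6.07 CPM in IP and 1.09, 0.656 and 0.860 CPM in input (log2 fold change 2.06, adjusted p = 0.0061), and without IP replicate 3 the log2 fold change was 1.46. Tssc4 missed the threshold without input replicate 2 (adjusted p = 0.057) or 3 (0.057). Those that fell were Snhg14, Ipw, H13, Gab1, Pon2, Pon3, Gatm and Xist. The noncoding RNAs Ipw and Xist fell together with Snhg14. Ipw, made from the Snrpn side of the locus, had 2.19, 3.20 and 3.08 CPM in IP and 9.89, 16.2 and 17.9 CPM in input (log2 fold change -2.38, adjusted p = 3.0e-05). Xist, the X inactivation RNA of the nucleus, had 4.05, 2.84 and 0.498 CPM in IP and 29.01, 27.1 and 22.7 CPM in input (log2 fold change -3.42, adjusted p = 0.00022). Gatm, an enzyme of creatine synthesis, had 13.1, 16.3 and 15.4 CPM in IP and 160.2, 162 and 164 CPM in input (log2 fold change -3.44, adjusted p = 2.7e-09). Pon3 had 0 reads in every IP library and 9, 32 and 46 in input.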

How the data were processed

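Each of the 6 libraries has 1 deposited file of raw read counts per gene symbol, without normalization by the authors. STAR 2.0.0e and HTSeq were used with mm10, per the submitters' processing notes. For the gene annotation, the HTSeq version and its strand setting, the sources used here give nothing. Rows that name no gene (reads outside genes, 8.78% ± 0.162 in IP and 17.2% ± 0.722 in input; those fitting more than 1 gene; those aligned to several places, 34.4% ± 1.43 in IP and 22.4% ± 1.21 in input; a row called unknown) were left out.

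Counts were scaled by TMM and filtered by filterByExpr, and the quasi-likelihood test of edgeR 4.0.16 was run in R 4.3.3, two-sided, on group alone, with Benjamini-Hochberg adjustment over 16506 genes. The filter left 43 members. CPM uses the TMM-scaled totals. Fold changes within lanes add 0.5 reads. SE was derived from the test statistic. The test was checked on simulated data. Lengths, coordinates and overlaps come from GENCODE M21 (GRCm38, the build of mm10). The 3-read floor is 0.0444 to 0.0796 CPM per library. Intervals and floors cover counting error only.

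Replicate numbers equal the sequencing lane in the labels, so a number marks a shared lane. Deviations of same-numbered libraries from their group means correlated at 0.087, 0.061 and 0.043 across genes. A fit with the number as a block was run beside the main one. No 2 libraries of a group were copies (chi-square per degree of freedom 23.2 to 68.8). All IP libraries carry one index and all inputs another, so index and group cannot be told apart.

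Every member may be named; of the other imprinted genes those called and Kcnq1, Zrsr1, Snhg14, Ipw and Nespas. Zim3, named for its overlap with Usp29, and Mcts2, named after its values were seen, fall outside this rule. The members and lists were chosen with earlier results of these data known. Alternatives were DESeq2 1.42.0, limma-voom (limma 3.58.1), RLE scaling, total counts, no filter, a filter of 1 CPM in 3 libraries, the block, and leaving out each library.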

Additional observations from a re-analysis of the deposited data

How the results depend on the processing

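The counts of members that rose, fell or did not pass stayed within 1.5 times of those reported under all 13 alternatives, which left 12 to 15 members higher and 9 to 11 lower when 1 library was left out. The replicate block called 3607 genes higher and 3966 lower among all 16506 and changed no member's call. Total counts moved the median of all tested genes to 0.078 (-0.015 with TMM) and the share of higher among all calls to 55.3%, beside 47.7% with TMM. The median log2 fold change of the members was then 0.20, and that of the noncoding members -2.99. The noncoding median was -3.50 without a filter and -3.57 with the filter of 1 CPM. Relative to total counts Peg3 passed (log2 fold change 0.22, adjusted p = 0.034), as did Casd1 (0.31, 0.022). Leaving out 1 library, the median lay between 0.078 and 0.21 over members, between 0.13 and 0.28 over coding members, between 0.13 and 0.40 over paternally expressed members, between -0.59 and -0.40 over maternally expressed members and between -3.15 and -3.01 over noncoding members.

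Members near 0 changed sign. With total counts Snrpn was at 0.086, Copg2 at 0.085 and Sgce at 0.092, and without a filter Snrpn was at 0.0086, Copg2 at 0.012 and Sgce at 0.015. Herc3 was at -0.012 in DESeq2 and with RLE scaling and at -0.037 with the 1 CPM filter, and Airn was at -0.017 in limma-voom. Leaving out 1 library gave log2 fold changes of -0.013 to 0.88 for Dio3, -0.088 to 1.18 for Zim1, -0.26 to 0.23 for Snrpn, -0.038 to 0.23 for Zdbf2 and -0.048 to 0.078 for Herc3. It gave -0.012 to 0.16 for Mest, -0.062 to 0.038 for Copg2, -0.052 to 0.073 for Sgce, -1.74 to 0.32 for Ddc and -0.22 to 0.38 for Airn. The difference in log2 ratio ran from -0.45 to 0.28 for Nnat over Blcap and from -0.23 to 0.63 for Airn over Igf2r. It ran from 0.25 to 0.64 for Snrpn over Ube3a and from -3.16 to -2.55 for Kcnq1ot1 over Cdkn1c. The cause of these shifts was not tested. Peg12 and Phlda2 had at most 3 reads in a group, so no difference was detectable at this depth.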
